A study of Mus musculus with 15 samples.

Results

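Cluster 2 of the deposited cell clusters held 87.3 to 93.5% of the cells of each mouse given the TREM2-binding antibody ATV:4D9 a day earlier. The 12 mice of the other groups also had cells there, and those few cells are described here. They were chosen by the deposited cluster label alone, and there were 1426 of them among 81584 cells of the 12 mice and 102043 cells of all 15 mice. They made up 1.12 to 3.23% of the cells of a mouse, or 1.75% of the 12 mice together. By group the shares were 1.12 to 2.35% in mice given the control antibody ATV:RSV and 2.12 to 3.23% at day 7 after ATV:4D9. At day 14 they were 1.12 to 1.285% and at day 28 they were 1.24 to 1.87%. The control range overlapped that of each later day, and the shares were not tested. The cluster label was drawn from gene expression, so differences between these cells and the other clusters are given as descriptions without a test. The 2 genes proposed as their markers were not detected in most of them. Spp1, which encodes osteopontin, had a UMI in 94 of the 1426 cells, and Mki67, a gene of cycling cells, in 58. The cells were a mixture. By sub-clustering, 607 were disease-associated microglia (DAM)-like, and 2 sub-clusters of 339 and 132 were interferon-responsive-like. A further 23 formed a dividing microglia-like sub-cluster, and a mixed set of 34 held G2/M genes and in part blood-cell genes. Cells with G2/M markers and a microglial profile also lay in other sub-clusters. Sub-clusters of 140, 105 and 46 cells were left unnamed. No sub-cluster was led by macrophage genes.

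Male C57BL/6J hTfR KI mice aged 3.5 months received 1 dose of 10 mg/kg of antibody, and their cortex and hippocampus were taken for droplet single-cell RNA sequencing of microglia. In these animals a human part of the transferrin receptor was knocked into the mouse gene, so that a brain shuttle on the antibody Fc (the antibody transport vehicle, ATV) could bind. ATV:4D9 carries the TREM2-binding antibody 4D9 and ATV:RSV a control antibody against a viral antigen, and both groups carried the same receptor allele. Cells were enriched from perfused hemibrains with beads against CD45, a surface protein of all leukocytes, which microglia share with macrophages and blood leukocytes. ATV:RSV mice were sampled at day 1, and ATV:4D9 mice at days 1, 7, 14 and 28, with 3 mice per group, and every one of 3 processing batches held all 5 groups. The replicate number given here is that batch. Days 7, 14 and 28 had no control of their own day, so there the antibody and the time since dosing cannot be told apart. Each library is 1 mouse.

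Microglia are the resident macrophages of the brain, and at rest they express genes such as P2ry12, Tmem119 and Sall1. The lipid-sensing receptor TREM2 signals through TYROBP and SYK and is needed for the DAM programme, in which genes of lipid handling and lysosomes such as Apoe, Lpl and Cst7 rise and the resting genes fall. Type I interferon turns on another set (Isg15, Ifit3, Rsad2) through transcription factors that bind repeats of GAAA. Border-associated macrophages (Mrc1, Cd163, Lyve1), monocytes (Ccr2, Ly6c2) and circulating cells can enter such a preparation.

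The sequences just upstream of interferon genes are shown because they are the leading genes of the interferon-responsive-like sub-clusters. Each run is a 60-base stretch, read on the strand of the gene, from the 250 bases upstream of the RefSeq start site (GRCm38.p6). Capitals mark every match, on either strand, to GAAA followed by any 2 bases and GAAA again. Isg15 (a ubiquitin-like protein; chr4:156200856-156200915, minus strand) held 3 overlapping matches. Ifit3 (chr19:34583365-34583424, plus strand) and Ifit1 (chr19:34640770-34640829, plus strand) held 2 each, and Rsad2 (viperin; chr12:26456538-26456597, minus strand) held 1.
Isg15: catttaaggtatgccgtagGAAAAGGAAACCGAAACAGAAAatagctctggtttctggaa
Ifit3: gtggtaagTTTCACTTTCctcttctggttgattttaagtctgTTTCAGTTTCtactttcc
Ifit1: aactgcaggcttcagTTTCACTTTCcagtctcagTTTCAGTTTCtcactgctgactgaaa
Rsad2: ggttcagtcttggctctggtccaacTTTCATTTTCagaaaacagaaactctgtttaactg
The motif was in the 250 bases upstream of 821 of 27025 mouse genes (3.04%). It was in 6 of the 8 leading genes of the larger interferon sub-cluster that had a window, in 4 of 9 of the smaller, and in 0 of 7 of the DAM-like sub-cluster. Promoters of the G2/M gene list held it in 1 of 20. A match is a description of the letters and not a shown binding site.

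Depth was higher in these cells than in their neighbours. The median UMIs per cell of the members lay between 6278 and 9090 in the 12 mice and those of clusters 0 and 1 between 4665 and 6094, with the members higher in 12 of 12 mice. By group the medians were 7982 ± 481 (SD, n = 3) in ATV:RSV, 7264 ± 1123 at day 7, 7447 ± 878 at day 14 and 8579 ± 684 at day 28. An exact permutation of the 4 groups within batches, on the variance of the group means, did not separate them (p = 0.418, adjusted p = 0.418, 13824 arrangements, smallest possible p = 7.2e-05). The median mitochondrial percent was also higher in the members in 12 of 12 mice, and the exact permutation test did not separate the groups there either (p = 0.354, adjusted p = 0.418). Members summed to 540168 to 2264006 UMIs per mouse, against 51663270 to 65585087 in cluster 2 of treated day 1. Of the 1426 members, 201 (14.1%) were among the 5% of cells with most UMIs in their mouse, and possible doublets were not removed from the main analysis. No barcode was shared between members of different libraries, while 2.67% of members and 2.53% of all cells had a barcode that occurred in another library.

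Nearly all members had a microglial profile. At least 3 of 14 homeostatic markers were detected in 1417 of 1426 (99.4%), and homeostatic markers gave at least 0.2% of the UMIs in 1406. P2ry12, a purinergic receptor, had 1045 ± 105 CPM (UMIs of the gene per 1e6 UMIs summed over the cells of a mouse, mean ± SD, n = 12 mice) in members and 2029 ± 183 in clusters 0 and 1 of the same mice, a ratio of 0.515. Tmem119 had 715 ± 69.4 against 1150 ± 80.9 CPM, and Sall1, a transcription factor of microglial identity, 177 ± 19.0 against 283 ± 17.2 CPM. All 14 homeostatic markers were lower in members, and their summed level was lower in 12 of 12 mice. Trem2 was close in the 2 sets (2723 ± 198 and 2663 ± 121 CPM). Tyrobp was 1.17 times as high in members.

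Macrophage and monocyte markers gave no macrophage group. Mrc1, the mannose receptor, had a UMI in 56 of 1426 members (3.93%) and in 2926 of 80158 other cells (3.65%), and members were deeper. Thinned to 3000 UMIs, the shares were 1.58 and 1.82%. Cd163, a scavenger receptor, was seen in 10 members, with 12 UMIs. At least 3 of 16 border-associated macrophage markers were detected in 198 members (13.9%) and 11.6% of other cells, and the summed level of the list was lower in members in 12 of 12 mice (544 ± 74.8 against 767 CPM). Within that list 13 of 16 genes had the higher mean in members, among them Pf4 (14.5 ± 11.0 against 4.98 ± 1.01 CPM), a platelet-type chemokine, and Ms4a7. Monocyte genes summed to 842 ± 206 CPM in members, 1.66 times the level elsewhere, while Ccr2 was 0.879 times as high and Ly6c2 came from 2 cells. The monocyte list included genes that activated microglia also express, and at least 3 of its markers were seen in 6.52% of members and 2.04% of other cells. Dendritic cells with at least 3 markers numbered 1, T or NK cells 3, neutrophils 2, B cells 7 and mast cells 0 of 1426, which counts cells with detected markers and does not limit the cells of a type present.

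The 15 genes with the highest ratio of members to clusters 0 and 1 came from separate programmes. Pbk, Mki67, Ube2c, Rrm2, Nusap1, Bub1 and Hmmr are genes of DNA synthesis and mitosis. Rhd (a red cell antigen), Vpreb3 (a pre-B cell protein) and Cd24a mark blood cell precursors. Spp1 and Mmp12 are secreted products of activated macrophages, and Oasl1, Ifi208 and Ifi211 are interferon-stimulated. Few cells carried them. Pbk was seen in 48 members, Rhd in 9, Vpreb3 in 8, Mmp12 in 27 and Oasl1 in 147. Against cluster 0 alone 11 of the 15 were again among the highest 15, and against cluster 1 alone 10.

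A large part of the Spp1 (chr5:104435118-104441050) UMIs lay in 1 cell. It had 1331 UMIs in the members, of which 562 (42.2%) lay in 1 DAM-like cell of ATV:RSV mouse 2. That mouse had 1098 CPM, and the other ATV:RSV mice had 14.3 and 28.1 CPM. At day 7 the mice had 21.6, 56.0 and 19.4 CPM, at day 14 they had 128, 72.2 and 44.2, and at day 28 they had 133, 46.9 and 65.0. The groups overlapped, and every one of these values was above the range of 0.245 to 0.757 CPM in clusters 0 and 1. Among cells of the 12 mice with an Spp1 UMI, 33.8% were members.

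Several DAM genes were shared more widely than Spp1. Apoe, the main lipid carrier of the brain, had 2298 ± 843 CPM in members and 764 ± 236 elsewhere, higher in 12 of 12 mice. Lpl, lipoprotein lipase, had 212 ± 124 against 8.72 ± 1.83 CPM, Cst7 (cystatin F) 119 ± 35.8 against 13.3 ± 5.36 CPM, Axl 45.0 ± 15.1 against 4.30 ± 2.50 CPM, and Clec7a 250 ± 79.6 against 12.2 ± 4.79 CPM. All 23 DAM genes had the higher mean in members, and their summed level was 1.56 times that elsewhere. The summed level of interferon genes exceeded that of the other clusters by a larger factor than that of DAM genes did. Gene by gene there was no such order, with Lpl at 24.3 times and Isg15 at 21.2 times the level elsewhere. Isg15 had 268 ± 114 against 12.6 ± 2.38 CPM and Ifit3 274 ± 99.9 against 4.85 ± 1.55 CPM, and the 20 genes of the list summed to 9.86 times the level elsewhere. At least 3 interferon markers were found in 954 members (66.9%) and 22.6% of other cells. Thinned to 3000 UMIs, Ifit3 was detected in 27.6% of members and 1.22% of other cells. Most cells with any UMI of these genes still lay outside cluster 2, since members held 488 of the 2330 cells with an Ifit3 UMI (20.9%) and 572 of 5629 with Isg15 (10.2%). Counted by UMIs, Ifit3 had 3562 in members and 2389 in other cells, and Isg15 had 3548 and 6316.

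**Figure D1:**
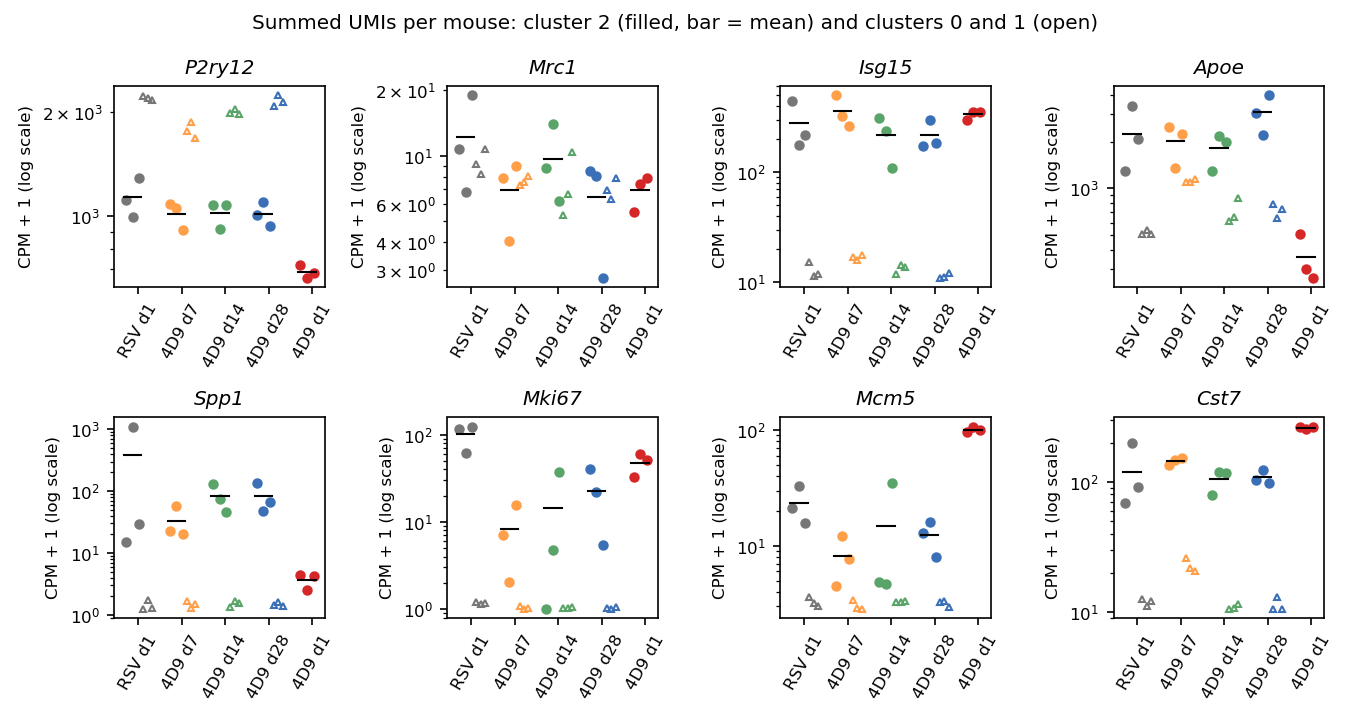
CPM + 1 (log scale) of 8 genes in each mouse, from UMIs summed over cluster 2 cells (filled circles, bar at the mean) and over cluster 0 and 1 cells (open triangles; not drawn for treated day 1), by antibody and day. P2ry12 was lower and Isg15, Apoe, Spp1 and Cst7 were higher in cluster 2 than in clusters 0 and 1 of every one of the 12 mice, and Mrc1 overlapped.

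Sub-clustering split the members into 8 groups, and 6 of them held cells of at least 10 of the 12 mice. Sub-cluster 1 (607 cells, 42.6%, median 9412 UMIs) was DAM-like. Its size depended on the resolution of the clustering. At a resolution of 1.0 its largest piece held 253 of the 607 cells, and at 0.3 it merged with most of sub-cluster 5 into 703 cells. Its leading genes against the other members included Lpl (287 against 93.0 CPM), Adssl1, Chst2, Il4i1, Ccl6, Ank, Ier3 and Itgax. Of 23 DAM genes, 22 were higher there than in other members, and Apoe had 2953 against 1607 CPM. It held 70 of the 94 cells with Spp1 and 5 of the 58 with Mki67. Interferon genes were at 0.117 times the level of the other members. It made up 18.2, 47.4 and 44.9% of the members in the ATV:RSV mice, 27.9, 45.0 and 49.4% at day 7, 44.4, 47.3 and 57.6% at day 14 and 44.2, 48.8 and 50% at day 28. Those ranges overlapped, with ATV:RSV mouse 1 the lowest.

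Interferon-responsive-like cells formed sub-clusters 2 (339 cells) and 4 (132 cells). Sub-cluster 2 was led by Ifi206, Rsad2, Cmpk2, Isg15, Ifi207, Oasl1, Iigp1, Ifi213, Slfn5 and Usp18, with Isg15 at 907 against 93.8 CPM in other members. Sub-cluster 4 was led by Gm4951, Ifi47, Trim30b, Ifit1, Ddx60, Ifit3b and Ifit3 (1408 against 219 CPM), with the heat-shock gene Hspa1b among them. All 20 interferon genes were higher than in other members in each of the 2. They differed in immediate early genes such as Fos and Jun, which are also induced by tissue dissociation. That list summed to 1.33 times the level of other members in sub-cluster 2 and 0.310 times in sub-cluster 4. Sub-cluster 4 was also shallower, with a median of 4578 UMIs against 7278, and its homeostatic markers were the highest of any sub-cluster (P2ry12 at 1597 CPM). Sub-cluster 2 made up 40.6% of the members of ATV:RSV mouse 1 and 48.3% of day 7 mouse 1, both of batch 1, and 11.4 to 29.6% in the other 10 mice.

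Sub-clusters 3, 5 and 6 were left unnamed. Sub-cluster 5 (105 cells) was led by Gdf15 (a stress-induced cytokine; 420 against 13.8 CPM), Nes, Hbegf, Tnfrsf12a, Dusp2 and Pdgfa, and its chemokine and cytokine genes summed to 2.71 times the level of other members. Sub-cluster 3 (140 cells) had Vps50 and Cst7 among its leading genes, DAM genes at 1.31 times and immediate early genes at 0.261 times. Sub-cluster 6 (46 cells) was shallow (3694 UMIs) with a mitochondrial median of 6.24%. It was led by Lgals3 and Cd72, and 19 of 23 DAM genes were higher than in other members. The DAM list summed to 40007 CPM in sub-cluster 6 and 35813 CPM in sub-cluster 3, both above the 33567 CPM of the DAM-like sub-cluster. In sub-cluster 6 immediate early genes were at 0.0388 times the level of other members.

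Cells with mitotic genes were not all of 1 kind. At least 3 of 23 G2/M markers were found in 79 members (5.54%), against 26 of 80158 other cells (0.0324%) and 20.9% of cluster 2 cells at treated day 1. The 23 cells of sub-cluster 8 were dividing microglia-like. Their leading genes were Kifc1, Sapcd2, E2f7, Troap, Pimreg, Bub1 and Kif4, of chromosome segregation and replication control. They were the deepest sub-cluster, with a median of 15662 UMIs, and homeostatic markers gave at least 0.851% of the UMIs of each. Tmem119 was detected in 23 of 23, at 846 CPM. Of these cells 12, 3 and 3 came from the ATV:RSV mice, 2 from day 7, 0 from day 14 and 3 from day 28. Sub-cluster 7 (34 cells) was mixed. All 34 had at least 3 G2/M markers, but 18 had under 0.2% of UMIs in homeostatic markers (at most 0.138%) and the other 16 had at least 0.513%. In 6 cells at least 3 erythrocyte markers were detected, in 5 at least 3 B cell markers and in 7 at least 3 monocyte markers. A cell can count under more than 1 of these. Monocyte genes summed to 3255 CPM in sub-cluster 7 and 805 CPM in other members. Its leading genes were Hba-a1, Hbb-bs, Car2, Rhd and Klf1, of red cell precursors, beside Cd24a. A single cell of day 7 mouse 3 held 2586 of 2612 S100a8 UMIs, a neutrophil gene. The other 22 cells with G2/M markers were spread over sub-clusters 1, 2, 3 and 6, each with at least 1.23% of UMIs in homeostatic markers. Among all cells with at least 3 G2/M markers, those with at least 0.513% of UMIs in homeostatic markers were 42 of 49 in ATV:RSV. At day 7 they were 5 of 9, at day 14 they were 3 of 6 and at day 28 they were 11 of 15.

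**Figure D2:**
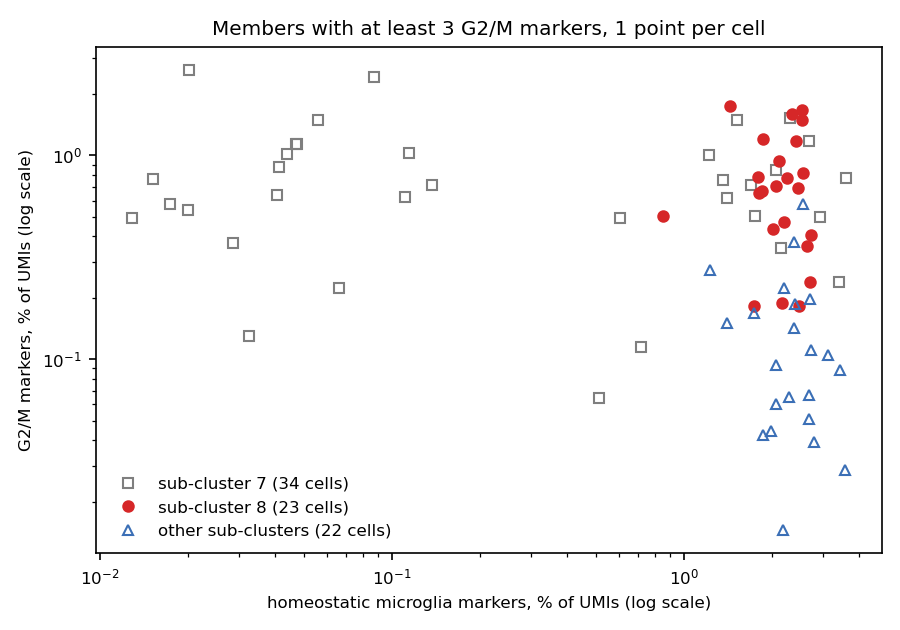
Each point is 1 of the 79 members with at least 3 G2/M markers, with the percent of its UMIs in homeostatic microglia markers on the x axis and in G2/M markers on the y axis (log scales). The 23 cells of sub-cluster 8 lie at 0.851% or more on the x axis, while sub-cluster 7 divides into 18 cells at 0.138% or less and 16 at 0.513% or more.

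**Figure D3:**
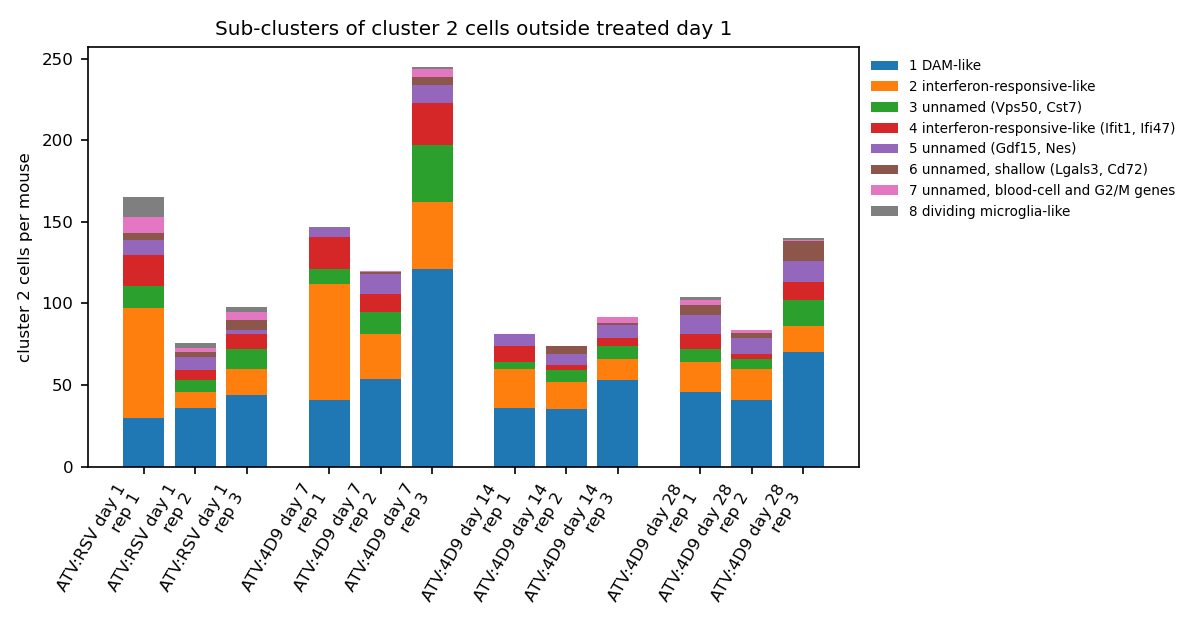
Bars give the number of cluster 2 cells of each mouse, divided into the 8 sub-clusters. The 12 mice hold 74 to 245 cells, and the DAM-like and interferon-responsive-like cells make up most of them.

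**Figure D4:**
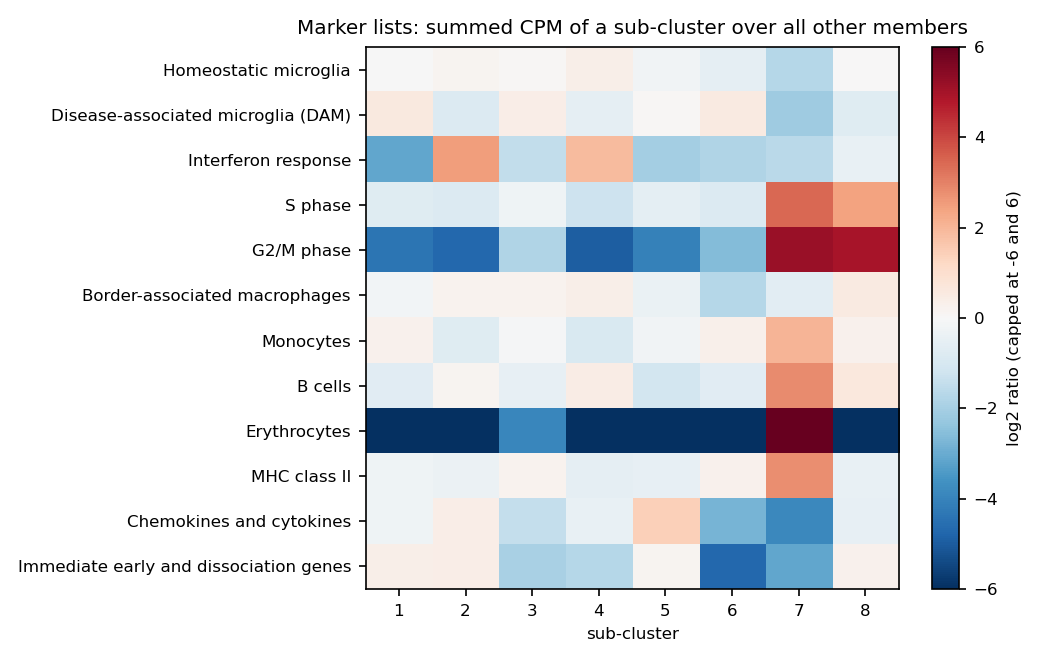
Colours give the log2 ratio of the summed CPM of each gene list (rows) in a sub-cluster to that in all other members (columns are sub-clusters 1 to 8), capped at -6 and 6, with a level of 0 drawn at the lower cap. G2/M genes are high in sub-clusters 7 and 8, erythrocyte genes in 7, and interferon genes in 2 and 4.

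Mki67 (chr7:135689784-135716361) followed those cells. ATV:RSV mice had 116, 59.95 and 123 CPM in cluster 2. At day 7 the values were 6.04, 1.02 and 14.6, at day 14 they were 0, 3.70 and 36.4, and at day 28 they were 39.7, 21.1 and 4.39 CPM. The 3 ATV:RSV mice stood above all 9 later treated mice. Cells with at least 3 G2/M markers made up 18.2, 11.8 and 10.2% of the members of the ATV:RSV mice and 0 to 8.65% in the 9 others. Of the 58 cells with Mki67, 24 were in sub-cluster 7, 21 in sub-cluster 8 and 13 elsewhere, and 37 came from ATV:RSV mice.

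The next comparison asked whether the members differed between ATV:RSV and the later treated days. UMIs of cluster 2 cells were summed per mouse and fitted with limma-voom over all 15 mice and 8511 genes, and genes with an adjusted p (Benjamini-Hochberg) under 0.05 were called. In bulk sums such as these, fewer cells of a type and less RNA per cell cannot be told apart. All of these contrasts share the same 3 ATV:RSV mice. Genes of mitosis were lower in the treated mice, and no gene of the homeostatic, DAM or interferon lists was called. With days 7, 14 and 28 pooled, 47 genes were called (0.552% of those tested), 8 higher (0.094%) and 39 lower (0.458%). Scaled by library size alone the split was 0 higher and 29 lower. The 9 treated mice lay wholly above the ATV:RSV mice for 0.658% of genes and wholly below for 0.999%. Of 19 G2/M genes tested 10 were lower (median log2 fold change -3.11, against -0.01 over all genes). Those 10 were Mki67, Top2a, Cdk1, Ccnb2, Birc5, Bub1b, Cenpa, Cenpf, Nusap1 and Prc1. Top2a, a topoisomerase of dividing cells, had 140, 82.1 and 96.2 normalized CPM (CPM scaled by the trimmed mean of M-values) in ATV:RSV mice and 0 to 63.3 in the 9 treated mice, with no overlap. Its log2 fold change was -3.54 ± 0.71 (SE; limma adjusted p = 0.0377). Cenpf, a kinetochore protein, had 91.2, 52.9 and 85.5 normalized CPM in ATV:RSV mice and 0 to 29.0 in treated mice (log2 fold change -3.69 ± 0.70, limma adjusted p = 0.0294). Mki67 gave -3.60 ± 0.74 (limma adjusted p = 0.0378). All 20 S phase genes had estimates below 0 and none was called. The same held for the 5 erythrocyte genes (median -6.50) and the 5 B cell genes (median -0.39) tested.

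The higher genes were few. Mif, a macrophage cytokine, had 255, 365 and 338 normalized CPM in ATV:RSV and 381 to 593 in treated mice (log2 fold change 0.61 ± 0.13, limma adjusted p = 0.0378). Arl4c and Tpt1 were also called higher.

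These counts moved with few cells and single libraries. With batch as a block 115 genes were called, among them 16 G2/M genes and 1 S phase gene lower and 10 ribosomal protein genes higher (1 without the block). Without the cells that had Mki67 or Top2a no gene was called by limma-voom, and without ATV:RSV mouse 1, which held 22 of the 58 cells with Mki67, none was called either (G2/M median -2.78). Without each of the other mice the counts were 59 (ATV:RSV mouse 2), 29 (ATV:RSV mouse 3), 14, 12 and 11 (day 7 mice 1 to 3), 8, 5 and 21 (day 14) and 41, 21 and 10 (day 28). Over those 12 fits the G2/M genes called lower numbered 0 to 13 and their median lay between -3.39 and -2.66, so the direction of the list was kept while the calls were not. Leaving out sub-cluster 7, and so also its 16 cells with at least 0.513% of UMIs in homeostatic markers, an alternative chosen after seeing the data, gave 84 genes, with 15 of 16 G2/M genes lower and a median of -3.88. Other settings ended the calls, with 2 genes called without possible doublets, 2 without cells with at least 3 macrophage markers and 0 with no filter on low counts, and no G2/M gene among them (medians -3.44, -3.23 and -3.13).

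Day 7 alone gave 59 genes (0.693%), 41 higher (0.482%) and 18 lower (0.211%). Scaled by library size alone 20 were higher and 26 lower. The day 7 mice lay wholly above the ATV:RSV mice for 7.8% of genes and wholly below for 6.5%. Ribosomal protein genes made up 28 of the 41, a group picked out after its values were seen. They have many near-identical copies, so single members are uncertain. Of 83 tested 81 had estimates above 0, and 57 were called with batch as a block, 14 under library size, 3 with no filter on low counts and 3 in the DAM-like sub-cluster alone. Single libraries moved the count as well, to 11 without ATV:RSV mouse 3, 12 without day 7 mouse 2, and 17 without day 7 mouse 1 or mouse 3. The ribosomal protein genes had a median log2 fold change of 0.28. Members of day 7 mice had 16.2 ± 0.32% of their UMIs in these genes and those of ATV:RSV mice 13.6 ± 0.53% (SD over 3 mice each). In clusters 0 and 1 of the same mice the shares were 16.8 ± 0.42% and 12.7 ± 0.34%, so the difference was at least as large outside cluster 2. Lag3, an inhibitory receptor of lymphocytes that microglia also express, had 474, 528 and 602 normalized CPM at day 7 and 283, 188 and 248 in ATV:RSV (log2 fold change 1.12 ± 0.17, limma adjusted p = 0.00306). Mif (0.75 ± 0.15), Rpl36a (0.54 ± 0.11), Csf3r (0.52 ± 0.09) and Uqcrh (0.52 ± 0.08) completed the 5 largest increases among called genes whose groups did not overlap. Csf3r, the receptor for granulocyte colony-stimulating factor, stood in the neutrophil list as its 1 tested gene, and had 198, 207 and 206 against 148, 132 and 135 normalized CPM.

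Of 19 G2/M genes 2 were lower at day 7 and of 20 S phase genes 0. By the same rule the 5 largest decreases were Cenpf, Racgap1, Cdk1, H2afx and Smc2. Smc2, a condensin subunit, had 17.5, 21.5 and 22.3 normalized CPM at day 7 against 86.2, 65.4 and 78.0 (log2 fold change -1.92 ± 0.26, limma adjusted p = 0.00172). No interferon gene was called at any of the 3 days. Of 20 estimates 20 were above 0 at day 7 (median 0.36), 2 at day 14 (median -0.27) and 0 at day 28 (median -0.41). With batch as a block 193 genes were called, with 8 G2/M genes lower. There 1 S phase gene and 1 DAM gene were lower and 1 chemokine or cytokine gene higher, lists with no call in the main fit. Without the cells with Mki67 or Top2a 27 were called, of which 1 was lower, and the estimates of Cdk1 (0.50) and H2afx (0.16) were above 0. The count was 19 without day 7 mouse 2, 31 without day 7 mouse 3 and 33 without ATV:RSV mouse 3.

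At days 14 and 28 the limma-voom test called 0 of 8511 genes. At an unadjusted p under 0.05 there were 528 and 566 (6.20 and 6.65%). edgeR called 2 and 4, and DESeq2 35 and 28. Day 14 mice lay wholly above the ATV:RSV mice for 5.36% of genes and below for 6.33%, and day 28 mice for 5.93 and 5.72%. Apoe had 1268, 2164 and 1942 normalized CPM at day 14 and 2976, 2116 and 4018 at day 28, against 1236, 3239 and 1972 in ATV:RSV, and the 3 ranges overlapped. Trem2 had 2656 to 2897 raw CPM at day 14, 2644 to 2946 at day 28 and 2233 to 2952 in ATV:RSV. Tfrc, the transferrin receptor bound by the vehicle, had 2 to 21 UMIs per mouse in members and was not called at either day.

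The last comparison set the ATV:RSV members against cluster 2 of ATV:4D9 day 1, at the same day, to ask whether cells with the same cluster label were alike. Cluster assignment drew on these genes, which bounds how far 2 groups within it can differ. Even so 3129 of 8511 genes were called (36.8%), 1641 higher and 1488 lower in ATV:RSV, and the median over all genes was 0.06. Scaled by library size alone 2052 were higher and 1222 lower, and no list of 10 described here changed the sign of its median. With no filter on low counts 10652 genes were called, 8906 higher and 1746 lower. That fit tested every gene with a UMI, more than the 8511. UMI sums were far smaller in ATV:RSV (683883 to 1537965) than at treated day 1 (51663270 to 65585087). The split of near-absent genes is therefore not read as a result. The ATV:RSV mice lay wholly above treated day 1 for 19.2% of genes and wholly below for 30.7%. Genes of DNA replication, respiration, glycolysis and ribosome assembly were lower in the ATV:RSV cells. Immediate early genes and 10 of 22 DAM genes were higher. Without ATV:RSV mouse 1 the count was 1762, and without possible doublets (cells with at least 3 markers of another cell type or among the 5% with most UMIs) 2023.

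The summed UMIs of S phase and G2/M genes differed in opposite directions. Of 20 S phase genes 18 were lower in ATV:RSV and 0 higher (median -2.06), where 17.5% of all genes were lower. Mcm5, part of the replicative helicase, had 19.4, 30.6 and 13.9 normalized CPM against 102, 112 and 108 at treated day 1 (log2 fold change -2.34 ± 0.26, limma adjusted p = 2.66e-06). Ung, a DNA repair glycosylase, gave -3.47 ± 0.47, and Uhrf1, which maintains DNA methylation, gave -2.11 ± 0.38 (limma adjusted p = 0.000334). Of 19 G2/M genes 13 were higher in ATV:RSV (median 1.38, where 19.3% of all genes were higher). Among them Ube2c, Nusap1 and Hmmr averaged 7.77, 8.47 and 9.24 raw CPM at treated day 1. They needed members of the other mice to pass the filter on low counts. The count of G2/M genes called higher is therefore not read as a result about the list. Cenpf had 91.2, 52.9 and 85.5 against 11.1, 16.9 and 17.3 normalized CPM. Counted by cells the order was the other way, since 18.2, 11.8 and 10.2% of members in the ATV:RSV mice and 20.9% of cluster 2 cells at treated day 1 had at least 3 G2/M markers. The treated day 1 share is pooled over its mice, and its cells were deeper (median UMIs 9064 against 7982, means over mice). These shares were not thinned. The count of G2/M genes was lower without sub-cluster 7, which was taken out of the 12 mice and not out of treated day 1. Without it 6 of 16 were higher and 1 lower (median 0.59), and without possible doublets 2 of 10 were higher and 1 lower (median -0.03). Without ATV:RSV mouse 1, 6 of 18 were higher. Mki67 itself had 112, 57.1 and 117 against 33.8, 61.7 and 54.5 normalized CPM, which overlapped, and without possible doublets its estimate was -1.33. Without sub-cluster 7, 18 of 20 S phase genes were lower (median -2.24). Its cells were rich in S phase genes (3772 against 347 CPM in other members) and left the ATV:RSV side only, so this fit is no check of the S phase result.

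Metabolic lists were lower as groups, where 17.5% of all genes were lower and 19.3% higher. Of 26 nuclear-encoded respiratory chain subunits 25 were lower (median -0.62), such as Cox5a of complex IV with 194, 200 and 200 against 335, 350 and 362 normalized CPM. Of 15 glycolysis genes tested 11 were lower and 0 higher (median -0.78). Ldha, lactate dehydrogenase, had 191, 260 and 210 against 419, 438 and 477 normalized CPM (-0.95 ± 0.11, limma adjusted p = 3.78e-06), and Pkm gave -1.09 ± 0.13. Of 15 nucleolar genes 12 were lower (median -0.73), with Ncl, nucleolin, at 348, 443 and 401 against 634, 729 and 644 normalized CPM. Ribosomal protein genes were lower in 62 of 83. Tfrc was lower as well, with 6.87, 2.78 and 9.62 against 25.2, 25.9 and 25.0 normalized CPM (-1.81 ± 0.42, limma adjusted p = 0.00249).

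Chemokine genes were mostly lower, and more DAM genes were called higher than lower. Of 15 chemokine and cytokine genes 8 were lower (Ccl2, Ccl7, Ccl12, Cxcl2, Cxcl10, Cxcl16, Il1a and Tnf) and Tgfb1 was higher. Tnf had 538, 706 and 533 against 1352, 1508 and 1635 normalized CPM. Il12b, Cxcl11, Ch25h (cholesterol 25-hydroxylase) and the replication gene Timeless were with Ung the 5 largest decreases among called genes whose groups did not overlap. Of 20 interferon genes 4 were lower, near the 17.5% of all genes, and 11 had estimates above 0 (median 0.15). Their summed raw CPM was 5384 ± 2759 in ATV:RSV and 11287 ± 1532 at treated day 1 (SD, n = 3 each), so the sum and the median differed in sign. Mx1 was the 1 gene called higher, against 6 with batch as a block and 8 without possible doublets. Isg15 was not called (-0.35 ± 0.27, limma adjusted p = 0.325). Among 22 DAM genes 10 were higher (Spp1, Apoe, Clec7a, Fabp5, Lgals3, Trem2, Ccl6, Csf1, Igf1 and Ank) and 3 lower (Cst7, Ctsz and Ch25h). Of all genes 19.3% were higher and 17.5% lower, so the 3 lower genes are not read as a result about the list. Apoe had 1236, 3239 and 1972 against 540, 318 and 289 normalized CPM, with no overlap (2.47 ± 0.30, limma adjusted p = 6.08e-06). Clec7a had 131, 317 and 156 against 62.9, 51.0 and 51.7. Cst7 moved the other way, with 64.9, 188 and 85.5 against 280, 269 and 289 normalized CPM (-1.51 ± 0.19, limma adjusted p = 8.13e-06). Lpl was not called (-0.49 ± 0.42, limma adjusted p = 0.379).

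Resting genes were partly higher in the ATV:RSV cells. Of 14 homeostatic genes 6 were higher (P2ry12, Cx3cr1, Csf1r, Siglech, Slc2a5 and Sparc) and Olfml3 was lower. Of all genes 19.3% were higher and 17.5% lower in this contrast. P2ry12 had 1071, 946 and 1221 against 770, 700 and 745 normalized CPM (0.64 ± 0.08, limma adjusted p = 5.75e-06). Of 19 immediate early and dissociation genes 14 were higher, with Klf2 at 992, 547 and 493 against 306, 404 and 313 normalized CPM, and Ier3 was lower. Of 6 genes of the antibody's target pathway and vehicle receptor, Trem2 (0.23 ± 0.08, limma adjusted p = 0.0237) and Syk (0.69 ± 0.13, limma adjusted p = 0.000349) were higher. Tfrc was lower, and 3 of the 6 had estimates above 0 (median -0.005). Set against the shares over all genes, these calls are not read as a result about the 6 genes as a list. Trem2 values overlapped between the groups, and its call was held in 11 of 18 alternatives.

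Red cell genes were the 5 largest increases by the same rule. Hba-a2 came first, with 268.5, 15.3 and 744 normalized CPM in ATV:RSV and 0.163, 2.23 and 0.212 at treated day 1. Hba-a1, Hbb-bs, Hbb-bt and Slc4a1, the red cell anion exchanger, followed. All 5 erythrocyte markers were called higher. Most of their UMIs came from a few members of sub-cluster 7, where 1 cell held 3243 of the 12947 Hbb-bs UMIs of the members. In ATV:RSV mouse 2 the sub-cluster 7 cells had no haemoglobin UMIs, and 1 cell of sub-cluster 3 had at least 3 erythrocyte markers. Without sub-cluster 7 Hba-a2 no longer passed the filter on low counts. Such genes entered the fit through the cells in which they were high, so their calls are not read as a difference between the groups. Pf4 (1.51 ± 0.31) and Maf were higher among the 4 macrophage genes tested and Lilra5 was lower. The summed macrophage list had 636 ± 30.3 CPM (SD, n = 3) in ATV:RSV members and 390 ± 25.9 at treated day 1. Without cells with at least 3 macrophage markers 2707 genes were called, with 8 of 22 DAM genes higher and 3 lower and 5 of 14 homeostatic genes higher and 1 lower. The summed monocyte list had 934 ± 186 CPM in ATV:RSV members (755 to 1126) and 384 ± 12.2 at treated day 1 (371 to 396), with no overlap. Of the tested markers of other cell types, Lyz2 (monocytes, 1 of 3), Csf3r (neutrophils, 1 of 1), Cd79a and Ebf1 (B cells, 2 of 5), Il7r (T and NK cells, 1 of 2), Slc1a3 and Mfge8 (astrocytes, 2 of 2), and Mbp and Cnp (oligodendrocyte lineage, 2 of 3) were also higher. Of all genes 19.3% were higher. None of 2 endothelial, 1 dendritic and 1 ependymal or choroid plexus gene tested was higher, and the endothelial gene Bsg was lower. Csf3r was at 132 to 148 normalized CPM in each ATV:RSV mouse, and 2 of 1426 members had at least 3 neutrophil markers. Without possible doublets 10 of 21 DAM genes were higher and 4 of 14 homeostatic genes.

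**Figure D5:**
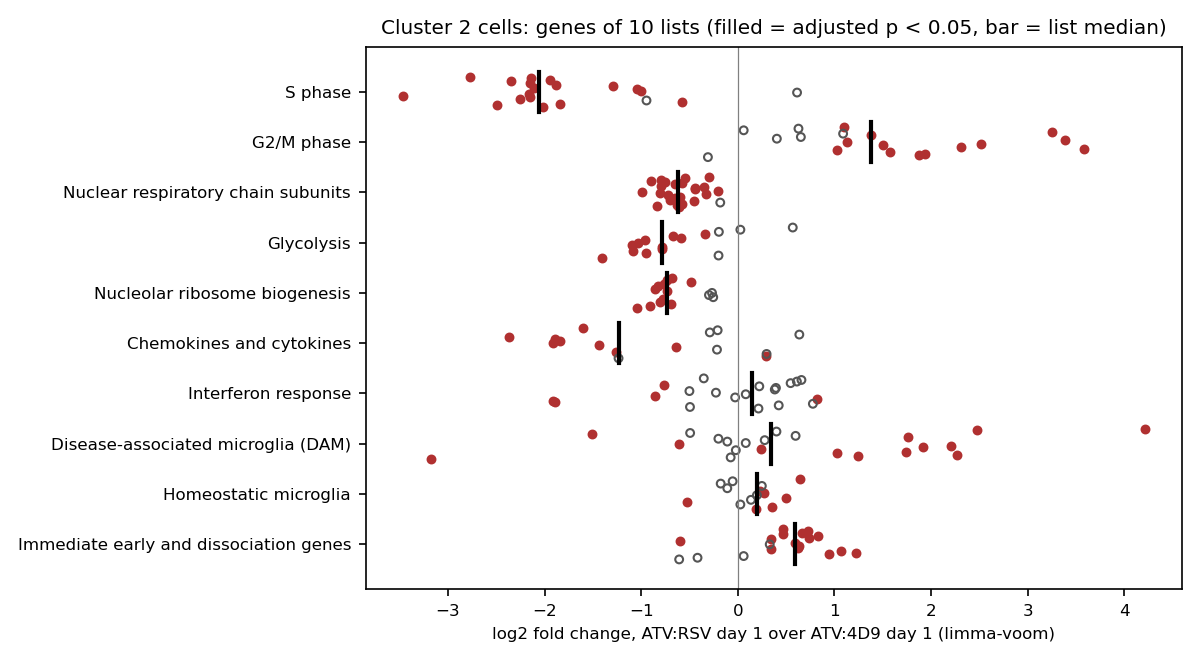
Each point is a gene of 10 lists (rows), placed by its log2 fold change between ATV:RSV day 1 and ATV:4D9 day 1 cluster 2 cells (limma-voom, x axis), filled where the adjusted p is under 0.05, with a bar at the list's median. Of the S phase genes 18 of 20 were called lower, and of the G2/M genes 13 of 19 were called higher. Some of these G2/M genes needed members of other mice than treated day 1 to pass the filter on low counts, so their count is not read as a result. Without sub-cluster 7, which was taken out of the ATV:RSV cells and not out of treated day 1, 6 of 16 G2/M genes were higher and 1 lower.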

How the data were processed

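UMI counts per gene and cell (10x Genomics 3' v3) were used as deposited, with the authors' cluster numbers, UMI totals and mitochondrial percent values. The submitters' processing notes name Cell Ranger 4.0.0 and mm10, while the published methods name later Cell Ranger versions. The deposited counts are not normalized. The highest mitochondrial percent in the file was 10.0 and the UMIs per cell ran from 667 to 24995. How doublets were treated before deposit is not given in the sources used here, and no caller was run.

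Members and gene lists were chosen with earlier results of these data known. Members were sub-clustered on 1000 variable genes, 20 principal components and 15 neighbours (Leiden resolution 0.5, igraph 0.11.9). Normalized CPM also uses the trimmed mean of M-values (TMM). Sums per mouse were fitted with limma 3.58.1 (voom, group means, 15 mice, a minimum count of 10 in filterByExpr). Alternatives were edgeR 4.0.16, DESeq2 1.42.0, other scalings, no filter on low counts, batch as a block, each mouse left out, and members left out (with Mki67 or Top2a, with 3 macrophage markers, or possible doublets). Removing sub-cluster 7 and testing the DAM-like sub-cluster alone were added after seeing the data. The fit was tested on simulated sums in which every gene had the same spread. In the data some genes had most of their UMIs in few cells, so the simulation is no check of calls of such genes. Batches pair the mice, since each held all 5 conditions per the labels. Deviations of same-batch mice correlated at 0.0271 on average (30 pairs, -0.216 to 0.28), and of different batches at -0.0136.

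Named were a panel of 28 genes, the 15 genes with the highest ratio of members to clusters 0 and 1, up to 10 leading genes per sub-cluster, the list genes called, and up to 5 called genes per direction whose groups did not overlap. Thinned shares are expected shares at 3000 UMIs per cell, and leave out 40 members and 5800 other cells. Gene positions are from GENCODE M21 (GRCm38) and upstream windows from RefSeq. Intervals were not drawn for shares of cells, and a binomial interval over pooled cells served only to label changes under thinning or another sub-clustering. The p-values measure the spread between values per mouse, which for the members also reflects the few cells sampled in each. Some genes that the rule would name are not reported here.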

Additional observations from a re-analysis of the deposited data

How the results depend on the processing

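Limits of these data were the number of cells (74 to 245 per mouse) and 1 control group shared by all 5 contrasts. Counts of called genes moved by more than 1.5 times as follows, and the cause was not tested except where cells or genes were removed by construction. For day 7 (59 genes) they were 193 with batch as a block, 120 with edgeR, 216 with DESeq2, 12 with no filter, 27 without cells with Mki67 or Top2a, 34 without cells with 3 macrophage markers, 98 without sub-cluster 7 and 28 in the DAM-like sub-cluster alone. For days 7 to 28 together (47 genes) they were 29 with library size alone, 115 with batch as a block, 79 with edgeR, 140 with DESeq2, 0 with no filter, 0 without cells with Mki67 or Top2a, 2 without macrophage-marker cells, 2 without possible doublets, 84 without sub-cluster 7 and 1 in the DAM-like sub-cluster alone. For day 14 (0 genes) they were 2 with edgeR, 35 with DESeq2, 1 with no filter and 1 without sub-cluster 7, and for day 28 (0 genes) 4 with edgeR, 28 with DESeq2, 1 without sub-cluster 7 and 1 in the DAM-like sub-cluster alone. For ATV:RSV against ATV:4D9 day 1 (3129 genes) they were 10652 with no filter, where more genes were tested, and 2023 without possible doublets. Leaving out each mouse gave 19 to 56 genes at day 7, 0 to 0 at days 14 and 28, 0 to 59 for the days together and 1762 to 3165 against treated day 1. Permutation p-values with each batch left out ran from 0.208 to 0.917 for UMIs and 0.0833 to 0.792 for the mitochondrial percent. Batch as a block moved no other total of called genes by over 1.5 times. Within the gene lists it moved further counts, which are given beside them. Removing sub-cluster 7 and taking the DAM-like cells alone were chosen after seeing the data. Of 917 alternative values of 47 named called genes, 618 kept the direction and the call, 295 kept the direction only and 4 reversed. Without cells with Mki67 or Top2a, Cdk1 was at 0.50 at day 7 and 0.43 for the days together, and H2afx at 0.16 at day 7. Without possible doublets Mki67 was at -1.33 against treated day 1. Thinning moved the share of members with a UMI outside a binomial interval for 24 of 28 panel genes. Under another resolution or gene number 7 of 24 sub-cluster sizes moved outside theirs. These intervals treat cells pooled over the mice as independent, and thinning lowers detection by construction. Neither count is therefore read as a test.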

Other observations

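Among 8996 genes with at least 50 UMIs in members and 1000 in clusters 0 and 1, 29 had a level in members of 0.5 times or less that elsewhere. The filter removes low genes that are nearly absent from members, so this count is not set against that of higher genes. The lowest ratio was that of Ttr, transthyretin, which choroid plexus makes in bulk, with 5.38 ± 6.79 CPM (SD, n = 12 mice) in members and 91.3 ± 154 elsewhere (0 to 494.5 by mouse). Its UMIs were in similar shares of cells, 4.63% of members and 3.82% of other cells (1.70 and 1.95% thinned to 3000 UMIs), so the ratio rests on cells and mice with many. It was followed by Sema4b, Pecam1, Slco4a1 and Kcnk12, a potassium channel subunit (18.2 against 43.4 CPM), all lower in 12 of 12 mice. These genes were chosen after their values were seen.

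Antigen presentation and metabolism also differed in the members as lists. Cd74, the invariant chain of MHC class II, had 303 ± 175 CPM in members and 33.7 ± 4.85 elsewhere, and at least 3 of 7 class II genes were detected in 27.4% of members and 8.21% of other cells. Members were deeper, and these shares were not thinned. Cd74 reached 1994 CPM in sub-cluster 7, where 6 of 34 cells had a UMI of it. All 12 MHC class I genes had the higher mean in members, and their sum was 1.44 times that elsewhere. Glycolysis genes summed to 3434 ± 411 CPM in members, 1916 in clusters 0 and 1 and 5225 at treated day 1, so members lay between those 2 sets. Nuclear respiratory chain genes (6228, 5047 and 8790 CPM) and nucleolar genes (1693, 1147 and 2525 CPM) had the same order.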
